A study of Mus musculus with 58 samples.

Results

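The comparison described here was that of diabetic with control retinas at ZT13, the Zeitgeber time 1 h after lights off. Its libraries were chosen by their titles, which gave 4 diabetic and 5 control libraries, or 9 of the 58 libraries of the series. The series sampled both genotypes at 6 time points of a 12 h light and 12 h dark cycle. Every library held total RNA of a mouse retina, depleted of ribosomal RNA, so that transcripts of protein-coding and other genes were covered. The diabetic mice were hyperglycemic males heterozygous for Ins2Akita on the C57BL/6 background, and the controls were male littermates with wild-type Ins2. All mice of both groups were 4 months old, were kept in the same light and dark cycle and were perfused with cold PBS. Retinas of the night points were dissected under dim red light. The Akita allele is a point mutation, so the counts of Ins2, which amounted to 2 reads over the 5 control and 11 over the 4 diabetic libraries, could not check the genotype. The whole retina was sequenced, hence a lower level of a transcript from fewer cells of a type and from less RNA per cell cannot be told apart.

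Around lights off the retina passes from cone to rod vision. Dopamine release from amacrine cells declines, rod energy demand increases, and transcripts under the control of the circadian clock and of light change their levels. The clock consists of the activators ARNTL and CLOCK, the repressors PER and CRY that they induce, and further loops through nuclear receptors such as REV-ERB and output factors such as DBP. In the Akita mouse, misfolded insulin leads to loss of beta cells and to hyperglycemia, which reaches photoreceptors, glia and vessels of the retina.

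The 9 libraries had from 9564862 to 17782291 counted reads, within the range of 7773117 to 22147398 over all libraries, and no pair of replicates agreed within sampling noise. Markers of rods, cones, bipolar, amacrine and ganglion cells, Muller glia and endothelium were read in every library, and their summed levels overlapped between the genotypes. Diabetic replicate 5 stood apart. The predicted locus Gm23935 took 5.59% of its counts against 0.0267% to 0.739% in the other 8 libraries, Gm26917 took 4.38% against 1.81% to 2.75%, and mitochondrial transcripts took 0.821% against 1.52% to 2.13%. It had the highest value of the 9 libraries in 17.0% of all genes tested and the lowest in 17.7%, more than any other library. Therefore values without this library are given beside many of the results. Diabetic replicate 4 held lens RNA, with a summed level of 8 lens markers of 58.2 against at most 5.32 normalized CPM in the other 8 libraries, and the lens marker Lim2 was at 0.

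The question was which transcripts differed between diabetic and control retinas 1 h into the night. None of the 19120 genes tested passed an adjusted p of 0.05 in edgeR's quasi-likelihood test with Benjamini-Hochberg adjustment, or 0% of genes. DESeq2 called 1 gene, Fndc1. Without adjustment 852 genes (4.46%) had a p under 0.05, of which 534 (2.79%) were higher and 318 (1.66%) lower in diabetic retinas. The levels of the genotypes did not overlap for 201 genes (1.05%), with 125 (0.654%) higher and 76 (0.397%) lower. The median 95% interval of a log2 difference, before adjustment, reached 0.28 to either side. A typical gene with a smaller difference would therefore not have had an unadjusted p under 0.05. Passing the adjusted threshold took more, as Fndc1 at -0.51 (SE 0.105) had an edgeR adjusted p of 0.199. Levels are given below as normalized CPM, the counts scaled to equal library size after TMM normalization, and differences as log2 of diabetic over control.

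Among genes lower in diabetic retinas, the smallest p-value belonged to Fndc1, which encodes a protein with fibronectin type III domains and lies on chromosome 17 from 7738569 to 7827302. Its levels were 44.5, 45.6, 49.99, 46.3 and 52.0 in control and 33.0, 34.5, 36.4 and 30.4 in diabetic retinas. All diabetic libraries were below all control libraries, and the means were 47.7 ± 3.20 (SD, n = 5) and 33.6 ± 2.52 (SD, n = 4). The log2 difference was -0.51 (SE 0.105, 95% interval -0.71 to -0.30), with an edgeR adjusted p of 0.199. Rnf123, a subunit of a ubiquitin ligase on chromosome 9 from 108051534 to 108083346, showed levels of 305, 247, 269.6, 315 and 289.7 in control and 228, 219, 235 and 236 in diabetic retinas. Again the genotypes did not overlap, and the log2 difference was -0.31 (SE 0.0763, edgeR adjusted p = 0.386). Exons of Rnf123 overlap those of Gmppb on the other strand, and the sources used here do not state whether reads were counted by strand.

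Mbnl2, a regulator of splicing, had levels of 235, 217, 243, 226 and 215 in control and 206, 201, 203 and 174 in diabetic retinas. The groups did not overlap, with a log2 difference of -0.21 (SE 0.054, edgeR adjusted p = 0.541) that was -0.16 without diabetic replicate 5. Igbp1, which binds the catalytic subunit of protein phosphatase 2A, had a control mean of 34.5 ± 2.21 (SD, n = 5) and a diabetic mean of 28.7 ± 3.14 (SD, n = 4). The log2 differences of Igbp1, Traf3ip3 and Arxes1 were -0.26, -0.43 and -0.42, and their levels overlapped between the groups. For all 4 of these genes the lowest of all 9 values was that of diabetic replicate 5.

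Among genes higher in diabetic retinas, Irf7 had the smallest p-value of the named genes and is described with the interferon genes. Plin4, a perilipin that coats lipid droplets, had levels of 1.00, 1.37, 0.314, 1.72 and 0.905 in control and 3.77, 2.13, 2.11 and 3.65 in diabetic retinas. Every diabetic library was above every control library. The log2 difference was 1.39 (SE 0.347, edgeR adjusted p = 0.457) and stayed at 1.27 without diabetic replicate 5. Dennd2a, an exchange factor for Rab GTPases, had levels of 27.9, 25.8, 25.6, 27.6 and 25.1 in control and 32.1, 31.0, 32.4 and 33.8 in diabetic retinas. Its groups did not overlap either, with a log2 difference of 0.29 (SE 0.077, edgeR adjusted p = 0.629).

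Other genes at the head of this direction rested more on diabetic replicate 5. Col1a1, the alpha chain of type I collagen, had a level of 10.6 there, against 1.54 to 2.33 in the other diabetic and 0.838 to 2.07 in the control libraries. Its log2 difference was 1.42 (SE 0.382) with all libraries and 0.36 without that library. Snora21, a small nucleolar RNA, and Rnu2-10, a U2 spliceosomal RNA, had levels under 3 normalized CPM in all 9 libraries and were highest in diabetic replicate 5. The log2 differences were 1.86 and 2.03, and without this library 1.44 and 1.57. AU020206, a gene outside the naming rule chosen after its values were seen, had levels of 1.59, 2.00, 1.36, 1.35 and 1.16 in control and 2.89, 1.79, 3.14 and 4.15 in diabetic retinas, with a log2 difference of 1.02 (SE 0.218, edgeR adjusted p = 0.199). It passed edgeR's threshold when diabetic replicate 3 was left out, and not when any other of the 9 libraries was.

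**Figure D1:**
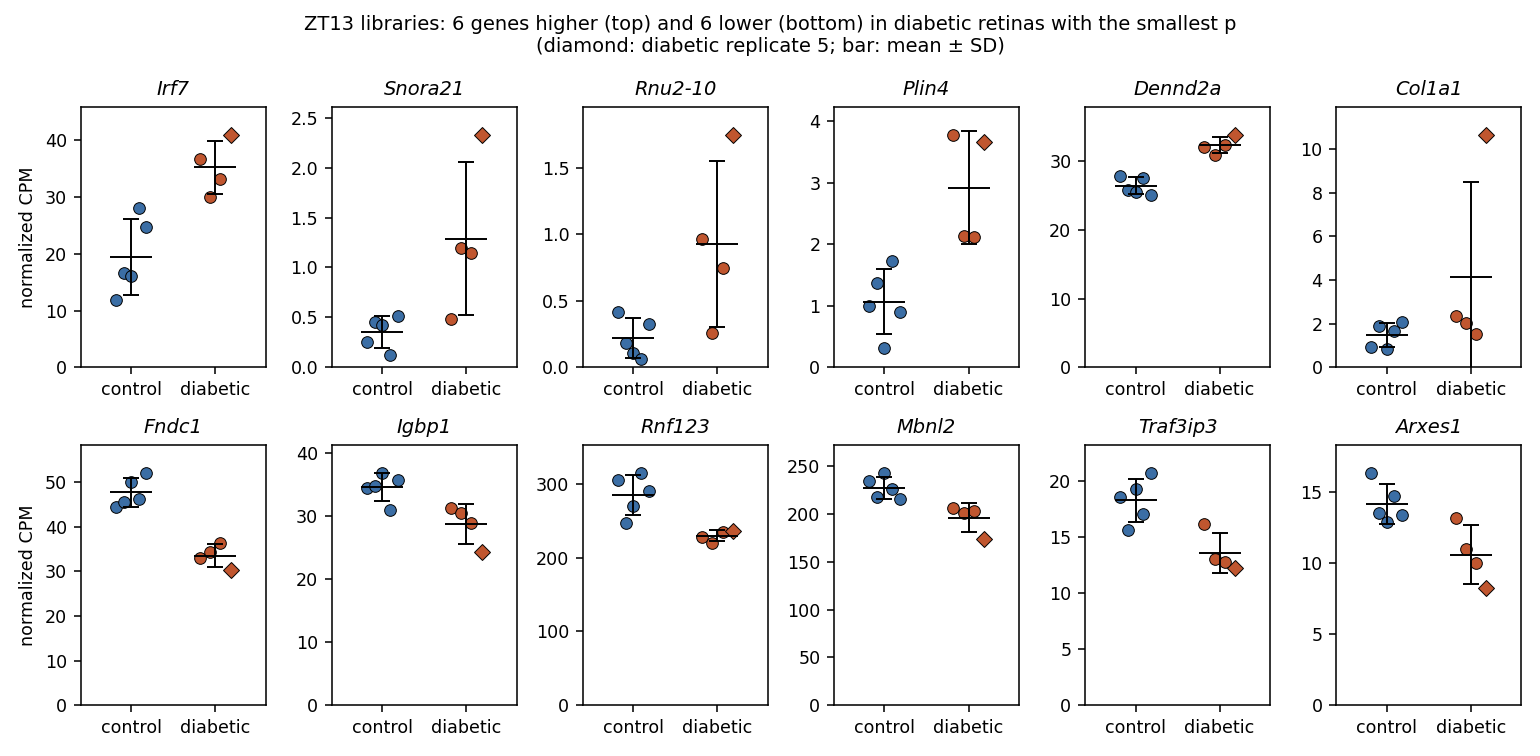
Normalized CPM (y axes, from 0) of the 6 genes higher (top) and the 6 lower (bottom) in diabetic retinas with the smallest p at ZT13 among named genes, predicted loci and AU020206 left out, with 1 point per library, the mean and the SD, and a diamond for diabetic replicate 5. The groups do not overlap for Irf7, Plin4, Dennd2a, Fndc1, Rnf123 and Mbnl2, while Col1a1 rests on the diamond at 10.6; the lower end of its diabetic SD bar lies under the axis.

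None of the 20 core clock genes had an unadjusted p under 0.05 at ZT13, against 4.46% of all genes tested, and no clock gene had separate groups. The median log2 difference over the list was 0.03, beside -0.0018 over all genes. The activator Arntl had means of 115 ± 5.79 (SD, n = 5) and 119 ± 7.50 (SD, n = 4), with a log2 difference of 0.05 and a 95% interval of -0.10 to 0.20. Clock and Npas2, its partners, had log2 differences of -0.12 and -0.23, and Rora and Rorb, which activate Arntl, of -0.03 and 0.03. Among the repressors, 10 of 11 had a positive difference, where 49.4% of all genes had one. Per1 had levels of 122, 113, 129, 169 and 151 in control and 147, 143, 175 and 175 in diabetic retinas. Per2 had levels of 41.5, 50.1, 47.0, 55.1 and 68.2 in control and 50.7, 61.3, 64.0 and 67.6 in diabetic retinas. For both the genotypes overlapped, and the 95% intervals of the log2 differences, -0.09 to 0.54 around 0.22 and -0.06 to 0.49 around 0.21, included 0.

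Of the other repressors, Cry2 had a log2 difference of 0.13 (95% interval -0.02 to 0.28), Ciart of 0.15, Per3 of 0.09 and Cry1 of 0.04. Nr1d1, which encodes REV-ERB alpha and shares exon sequence with Thra on the other strand, was at -0.09, and Nr1d2 at 0.02. The output factors Dbp, Tef and Hlf were at -0.03, 0.09 and -0.03. The widest interval was that of Npas2, from -0.60 to 0.14, at a level of 2.30 to 4.51 normalized CPM over the 9 libraries. On the median over the list the unadjusted 95% interval reached 0.215 to either side. A typical member with a smaller difference would not have had an unadjusted p under 0.05. Without diabetic replicate 5 the median of the list was 0.05, Clock was at -0.04, Dbp at 0.03 and Hlf at 0.05, and no clock gene was under 0.05.

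**Figure D2:**
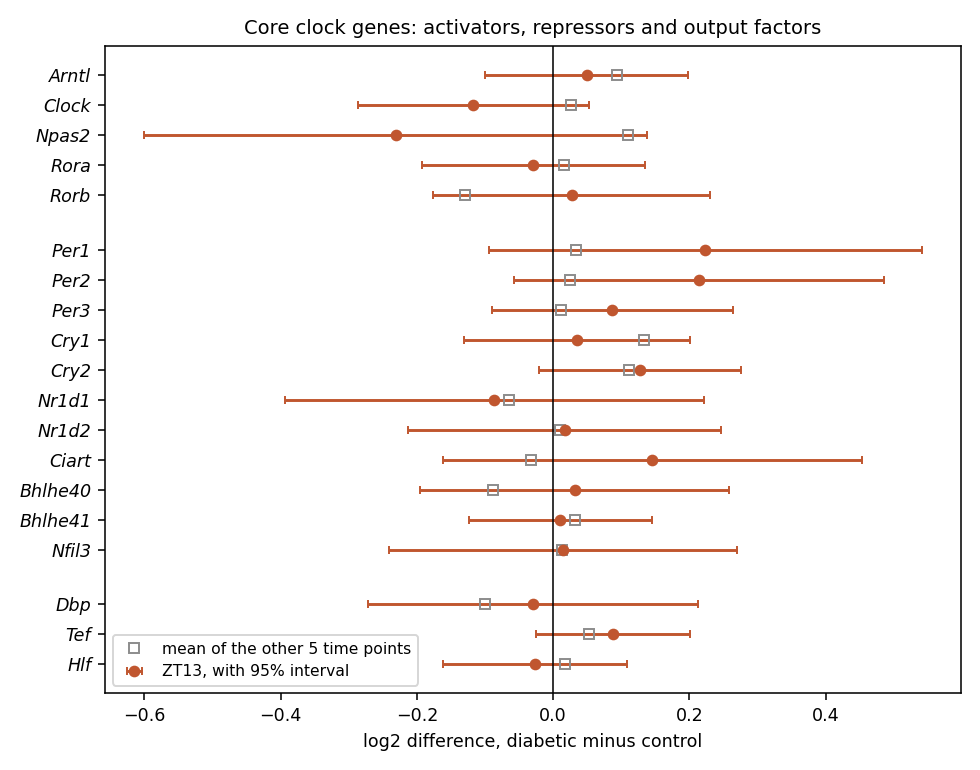
Log2 difference of diabetic minus control (x axis) for core clock genes, in order of activators, repressors and output factors, at ZT13 (filled points with 95% intervals) and as the mean of the other 5 time points (open squares). Every interval at ZT13 includes 0, and Per1 and Per2 have the highest ZT13 values, 0.22 and 0.21.

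Interferon genes are induced by the factor IRF7 and its relatives through interferon-stimulated response elements in their promoters. Irf7, on chromosome 7 from 141262706 to 141266481, had levels of 11.9, 16.6, 16.0, 28.1 and 24.7 in control and 36.7, 30.1, 33.2 and 41.0 in diabetic retinas. All diabetic libraries lay above all control libraries, and the control libraries spread more than the diabetic ones. The means were 19.5 ± 6.69 (SD, n = 5) and 35.2 ± 4.66 (SD, n = 4), with a log2 difference of 0.84 (SE 0.19, 95% interval 0.46 to 1.22). The unadjusted p was 5.15e-05 and the adjusted p 0.328 in edgeR's quasi-likelihood test, and without diabetic replicate 5 the log2 difference was 0.76. Exons of Irf7 overlap those of Phrf1 on the other strand.

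Over the day the level of Irf7 was lowest at ZT5 and ZT9 and highest at ZT17 in both genotypes. The control means were 10.4 ± 1.33 (SD, n = 6) at ZT5, 12.0 ± 1.07 (SD, n = 5) at ZT9, 19.5 at ZT13 and 48.9 ± 13.1 (SD, n = 5) at ZT17. The diabetic means were 11.4 ± 1.42 (SD, n = 5), 13.0 ± 1.82 (SD, n = 5), 35.2 and 58.8 ± 10.3 (SD, n = 4). Thus ZT13 lay between the low values of the day and the high values of the night. In normalized CPM the diabetic mean was about as far from its ZT9 as from its ZT17 mean. The control mean was nearer to its ZT9 mean. On the log2 scale the diabetic mean was nearer to its ZT17 mean. The genotype difference of Irf7 was 0.12 at ZT9, 0.27 at ZT17 and 0.19 on average over the other 5 time points. It exceeded this average by 0.65 at ZT13 (SE 0.208, unadjusted p = 0.0030 in edgeR), which was not past the threshold after adjustment over all genes.

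All 16 genes of the list of interferon response and MHC class I were tested, of which 3 were higher and 0 lower at an unadjusted p under 0.05, or 18.8% against 4.46% of all genes. A positive difference was found for 13 of 16, and the median was 0.21. The other members under 0.05 were Bst2 (tetherin, which holds budding viruses at the membrane), with a log2 difference of 0.91 (SE 0.352), and Ifit3, with 0.47 (SE 0.232). Ifit3 had levels of 7.51, 5.92, 7.96, 5.48 and 4.53 in control and 12.4, 9.12, 6.85 and 6.31 in diabetic retinas, so that diabetic replicates 4 and 5 lay within the control range. Bst2 had levels of 1.42, 0.728, 0.838, 1.35 and 0.647 in control and 3.21, 1.28, 1.48 and 1.66 in diabetic retinas. Diabetic replicate 1 was highest of the 9 for both. The members spanned log2 differences from -0.21 to 0.91. Without diabetic replicate 5 the median was 0.22 and 4 genes were under 0.05. Over the other 5 time points the median of the list was 0.10.

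The interferon-stimulated response element was searched on both strands, as GAAA, any 2 bases and GAAA, in the 300 bases from 250 before to 50 after the start site of each gene (RefSeq, GRCm38.p6). It was found in 3.44% of 32851 promoter windows and in 5 of the 14 interferon genes with a window, Ifit1, Ifit3, Isg15, Bst2 and B2m. The window of Irf7 held no match. The 250 bases before the start of Ifit3 (chr19:34583279-34583528, plus strand) and of Bst2 (chr8:71537473-71537722, minus strand) are shown because both genes are under the unadjusted threshold and hold the element, which is in capitals.
Ifit3: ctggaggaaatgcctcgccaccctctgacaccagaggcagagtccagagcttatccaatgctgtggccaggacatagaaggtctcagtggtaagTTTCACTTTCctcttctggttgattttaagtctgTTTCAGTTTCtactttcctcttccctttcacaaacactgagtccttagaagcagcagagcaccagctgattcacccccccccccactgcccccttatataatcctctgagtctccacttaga
Bst2: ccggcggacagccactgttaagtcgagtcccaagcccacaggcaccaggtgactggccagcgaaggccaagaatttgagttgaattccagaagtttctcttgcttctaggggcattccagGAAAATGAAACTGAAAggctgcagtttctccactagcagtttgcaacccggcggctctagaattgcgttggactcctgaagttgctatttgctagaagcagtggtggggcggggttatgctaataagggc
The 2 matches of Ifit3 begin 156 and 122 bases before the start site, and the 2 of Bst2, which overlap, 130 and 124 bases before it. These are matches of letters and no sites of measured binding.

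No phototransduction gene passed the adjusted threshold at ZT13. A negative difference was found for 9 of the 10 rod genes, 9 of the 10 cone genes and all 10 genes of the outer segment, where 50.6% of all genes had one, and the medians were -0.08, -0.07 and -0.09, smaller than the interval of a typical gene. Of the cone genes 2 were lower at an unadjusted p under 0.05, the short-wave opsin Opn1sw and the G protein subunit Gnb3, and none of the rod or outer segment genes, where 1.66% of all genes were lower. No cone gene was under 0.05 without diabetic replicate 5, when the median of the cone genes was -0.06 in place of -0.07. With the replicate number as a block, the outer segment genes Cdhr1 (-0.14, unadjusted p = 0.0420 in edgeR) and Impg1 (-0.11, unadjusted p = 0.0374 in edgeR) were under 0.05. Gnb3 had levels of 236, 219, 236, 254 and 234 in control and 205, 207, 218 and 217 in diabetic retinas, which did not overlap, with a log2 difference of -0.15 (SE 0.0764). Opn1sw had means of 316 ± 79.6 (SD, n = 5) and 267 ± 13.5 (SD, n = 4), and control replicate 3 at 454 was far above the other control libraries at 257 to 313. Exons of Opn1sw overlap those of Calu on the other strand.

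In the shut-off of the photoresponse, Sag, the rod arrestin, had levels of 3266, 2949.8, 3548, 3091 and 3196 in control and 2641, 2937, 2857 and 2704 in diabetic retinas. The groups did not overlap and the log2 difference was -0.21 (SE 0.079, unadjusted p = 0.0121 in edgeR). Gucy2f, a guanylate cyclase that restores cGMP, had a log2 difference of -0.20 (SE 0.0948). These 2 of 12 genes were the members lower at an unadjusted p under 0.05, where 1.66% of all genes were, and the list's median was -0.05. Without diabetic replicate 5 only Sag was under 0.05, and the median was -0.04. Over the other 5 time points 4 rod, 5 cone and 3 shut-off genes were lower past the adjusted threshold, where 2.08% of all genes were, and 1 shut-off gene, the G protein subunit Gnb5, was higher (0.07). Among the lower ones were Sag (-0.15, edgeR adjusted p = 0.00636) and Gnb3 (-0.18, edgeR adjusted p = 0.000534). Of 11 visual cycle genes 5 were lower past the adjusted threshold over the other 5 time points, and 1 was lower at an unadjusted p under 0.05 at ZT13. This was the retinol dehydrogenase Rdh12, at -0.16, which was at -0.10 and not under 0.05 without diabetic replicate 5.

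Samd7 stood out among the photoreceptor transcription factors and regulators. It encodes a photoreceptor protein of the Polycomb system that keeps genes of other cell types silent in rods, and lies on chromosome 3 from 30746293 to 30767174. At ZT13 its levels were 128, 122, 153, 168 and 163 in control and 168, 183, 184 and 171 in diabetic retinas. The ranges of the genotypes just overlap, with means of 147 ± 20.9 (SD, n = 5) and 177 ± 8.25 (SD, n = 4) and a log2 difference of 0.27 (SE 0.0871, edgeR adjusted p = 0.809). At the other 5 time points the diabetic mean was below the control mean each time. The log2 differences there were -0.11 at ZT1, -0.20 at ZT5, -0.16 at ZT9, -0.43 at ZT17 and -0.28 at ZT21, with a mean of -0.23 (SE 0.0375, edgeR adjusted p = 5.31e-05).

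The genotype difference of Samd7 at ZT13 exceeded the mean of the other 5 time points by 0.50 on the log2 scale (SE 0.0948, edgeR adjusted p = 0.0458). It exceeded that at ZT17, the next time point, by 0.70 (SE 0.123, edgeR adjusted p = 0.0122), and that at ZT9, the time point before, by 0.42 (unadjusted p = 0.00089, not past the threshold after adjustment). Samd7 was the 1 gene called in each of the first 2 comparisons, or 0.00523% of genes, and no gene was called against ZT9 by edgeR or DESeq2. At an unadjusted p under 0.05 the 3 comparisons, with the other time points, ZT17 and ZT9, had 633 (3.31%), 874 (4.57%) and 581 (3.04%) genes. The call depended on single libraries. Of 14 other settings, 5 kept it against the mean of the other time points (adjusted p from 0.00924 to 0.557) and 10 against ZT17 (0.00117 to 0.0703), while the size stayed from 0.44 to 0.56 and from 0.64 to 0.75. Control means ranged from 126 at ZT5 to 168 at ZT17 over the day, and control replicates 1 and 2 of ZT13, at 128 and 122, were near the lower end of this range.

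TAATCC, the core letters bound by CRX and OTX2, the factors that drive photoreceptor genes, were found in 7.06% of the promoter windows, searched on both strands. They were found in 3 of 6 rod genes with a window, 5 of 9 shut-off genes, 1 of 6 cone genes and 4 of 10 photoreceptor transcription factors, among them Samd7, and also in 3 of 14 interferon genes and none of 17 clock genes. The 250 bases before the start of Samd7 (chr3:30746043-30746292, plus strand, RefSeq, GRCm38.p6) are shown because this gene carried the difference between time points, with the match, 139 bases before the start site and on the reverse strand, in capitals.
Samd7: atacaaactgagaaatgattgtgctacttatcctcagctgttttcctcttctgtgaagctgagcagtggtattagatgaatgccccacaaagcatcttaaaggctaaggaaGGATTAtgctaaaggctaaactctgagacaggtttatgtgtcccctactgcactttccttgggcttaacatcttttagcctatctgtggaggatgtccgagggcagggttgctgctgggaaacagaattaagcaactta

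**Figure D3:**
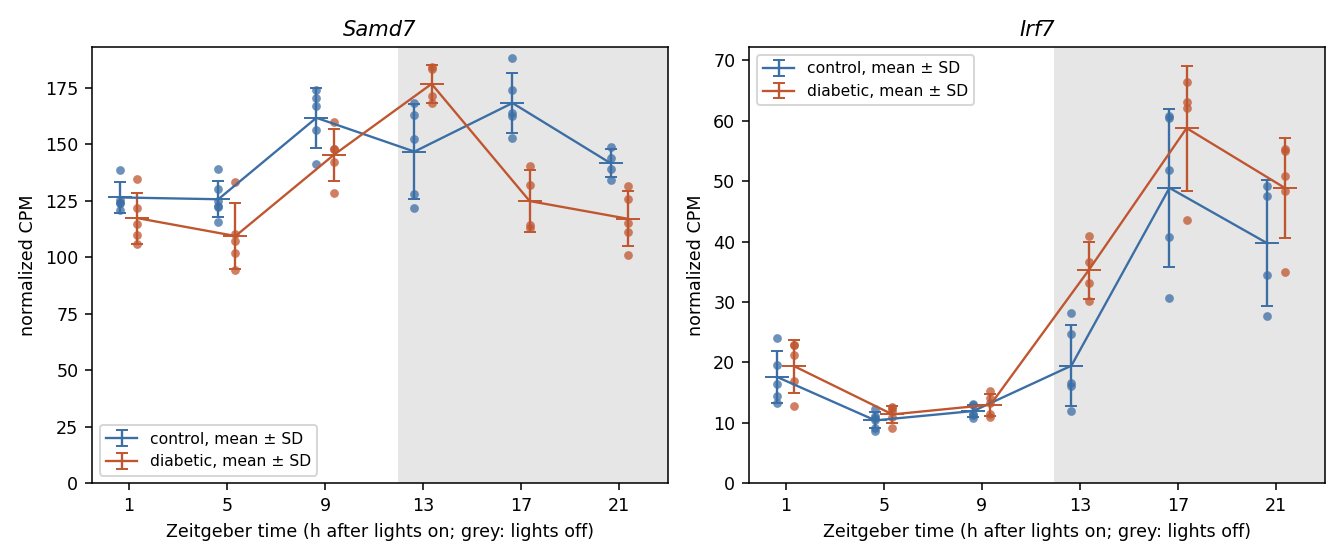
Normalized CPM (y axes, from 0) of Samd7 (left) and Irf7 (right) against Zeitgeber time (x axes, h), with 1 point per library, means and SD for control and diabetic retinas, and the dark phase in grey. Samd7 is higher in diabetic retinas at ZT13, 177 against 147, and lower at each other time point, and Irf7 at ZT13 is 35.2 in diabetic and 19.5 in control retinas.

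Other genes with the smallest p-values for a ZT13 difference unlike the mean of the other 5 time points were Ypel2 and Thbs4, each with an edgeR adjusted p of 0.791. Thbs4, a thrombospondin of the matrix, had a log2 difference of 0.87 at ZT13 and of -0.51 over the other time points. Ypel2 had -0.17 and 0.08, and -0.09 at ZT13 without diabetic replicate 5. Leaving out predicted loci, the smallest p-values against ZT9 were those of Bricd5, the Wnt inhibitor Sfrp5 and Timp3, and against ZT17 those of Samd7, the growth factor Fgf9 and Ypel2. Timp3, an inhibitor of matrix metalloproteinases, had levels of 114, 102, 102, 117 and 72.0 in control and 148, 114, 135 and 149.8 in diabetic retinas at ZT13. The log2 difference of Timp3 was 0.43 (SE 0.124), against -0.11 over the other time points, and its exons overlap those of Syn3 on the other strand. Drd4, the dopamine receptor of photoreceptors, had means of 224 ± 63.7 (SD, n = 5) and 292 ± 44.0 (SD, n = 4) at ZT13. The control means of Drd4 were 162 at ZT9 and 347 at ZT17, and the diabetic means 154 and 296, so that at ZT13 the diabetic mean was close to its own ZT17 mean. Drd4 was the only one of 12 dopamine, cyclic AMP and melatonin genes with an unadjusted p under 0.05 at ZT13, or 8.33% against 4.46% of all genes. Its log2 difference was 0.28 without diabetic replicate 5, when no member of the list was under 0.05.

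Among genes of glucose sensing, all 6 had a positive difference, where 49.4% of all genes had one, with a median of 0.18. Of these, 2 were higher at an unadjusted p under 0.05, where 2.79% of all genes were. Txnip, an inhibitor of thioredoxin and of glucose uptake that glucose induces, had levels of 7.18, 6.46, 7.65, 7.69 and 5.17 in control and 11.1, 6.91, 8.34 and 14.3 in diabetic retinas. Diabetic replicate 3 lay within the control range, and the log2 difference was 0.57 (SE 0.171, edgeR adjusted p = 0.795), or 0.37 without diabetic replicate 5. Thbs1, a thrombospondin that glucose also induces, had means of 17.6 ± 8.32 (SD, n = 5) and 29.4 ± 5.31 (SD, n = 4), with a log2 difference of 0.74 (SE 0.247). The 9 genes of the polyol, hexosamine and glycation pathways had a median of -0.0030 and no member under 0.05. Fkbp5, a target of the glucocorticoid receptor, had levels of 23.03, 23.025, 25.5, 24.9 and 25.7 in control and 34.0, 24.9, 29.3 and 39.955 in diabetic retinas. It had a log2 difference of 0.39 (SE 0.109) and was the only one of 9 glucocorticoid targets under 0.05, or 11.1% against 4.46% of all genes, while with the replicate block Pdk4 (0.91, unadjusted p = 0.0423 in edgeR) was also under it.

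No glycolytic gene of 27 had an unadjusted p under 0.05, and the median over the list was -0.0093 at ZT13 and -0.07 over the other 5 time points, where 7 were lower past the adjusted threshold, where 2.08% of all genes were. Hk2, the hexokinase of photoreceptors, had levels of 769, 683, 884, 862 and 905 in control and 809, 817, 897 and 1211 in diabetic retinas. The highest was diabetic replicate 5, and the log2 difference of 0.19 (95% interval -0.02 to 0.39) was 0.04 without it. The 39 nuclear genes of the respiratory chain had a median of -0.02 and none under 0.05. The 7 tested transcripts of the mitochondrial genome had a median of -0.15, which was 0.05 without diabetic replicate 5. In fatty acid oxidation Acadm, the medium-chain acyl-CoA dehydrogenase, had levels of 83.2, 77.2, 85.5, 68.5 and 78.7 in control and 64.1, 66.9, 71.7 and 67.2 in diabetic retinas. Its log2 difference was -0.22 (SE 0.0773) at ZT13 and 0.08 over the other time points. Cpt1a, which admits fatty acids to mitochondria, was at -0.14 and the uncoupling protein Ucp2 at 0.46, so that 3 of 20 genes (15%) were under 0.05, where 4.46% of all genes were. Cpt1a was at -0.13 without diabetic replicate 5, when only Acadm was under 0.05. With the replicate block Ucp2 was not (0.41, unadjusted p = 0.0546 in edgeR). Of 22 hypoxia genes 2 were higher, Mxi1 and Egln3, at 0.22 and 0.40, or 9.09% against 4.46% of all genes, and the median was 0.05. None was under 0.05 without diabetic replicate 5, when Egln3 was at 0.33 and the median of the list at 0.03.

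Chaperones and disulfide isomerases of the endoplasmic reticulum were lower in 14 of 15 genes, with a median of -0.15 beside -0.0018 over all genes, and 2 were lower at an unadjusted p under 0.05, where 1.66% of all genes were. Pdia6, a disulfide isomerase, had levels of 56.9, 49.1, 50.9, 49.0 and 50.2 in control and 49.5, 43.4, 45.5 and 36.8 in diabetic retinas. Diabetic replicate 1 lay within the control range, and the log2 difference was -0.22 (SE 0.0811). Dnajb11 had a log2 difference of -0.20 (SE 0.0742), or -0.13 without diabetic replicate 5, and Hspa5, the chaperone BiP, of -0.23 (95% interval -0.47 to 0.01). Without diabetic replicate 5, which was lowest of the 9 for all 3 genes, the list's median was -0.07 and no member was under 0.05. Over the other 5 time points the median was -0.14 and 7 of 15 were lower past the adjusted threshold, where 2.08% of all genes were. Among 25 genes of the unfolded protein response and targets of ATF4, Slc38a2 was the member under 0.05, and this share of 4% was below the 4.46% of all genes. With the replicate block Ddit3 (-0.20, unadjusted p = 0.0479 in edgeR) was also under 0.05. Slc38a2, an amino acid carrier, had levels of 121, 123, 125, 105 and 125 in control and 154, 139, 143 and 140.1 in diabetic retinas, which did not overlap, with a log2 difference of 0.27 (SE 0.124). Of 15 insulin and FOXO genes 1 (6.67%) was under 0.05, a share near that of all genes. This was Foxo6, at 0.454, and at 0.456 without diabetic replicate 5, when no member was under 0.05.

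All 15 collagens had a positive difference and 6 were higher at an unadjusted p under 0.05, or 40% of the list against 4.46% of all genes, with a median of 0.26. Besides Col1a1 these were Col1a2, Col3a1, Col8a1, Col8a2 and Col18a1, of which Col3a1, Col8a1 and Col18a1 lie outside the naming rule. Col1a2 had levels of 4.17, 5.19, 1.89, 5.60 and 1.42 in control and 9.31, 5.63, 5.77 and 12.5 in diabetic retinas, which did not overlap. Col8a2, a collagen of basement membranes, had levels of 15.3, 7.01, 10.7, 11.4 and 4.85 in control and 16.4, 13.3, 16.0 and 27.9 in diabetic retinas. Without diabetic replicate 5 the median was 0.20 and 2 were under 0.05, and over the other 5 time points the median was 0.16. Markers of tissues next to the retina were summed as well, and their ranges overlapped between the genotypes. Those of the retinal pigment epithelium include Rlbp1, which also served as a marker of Muller glia. The summed level of 10 markers of the retinal pigment epithelium was 294 to 561 in control and 421 to 630.4 in diabetic libraries, that of 6 markers of cornea and ciliary body 35.6 to 59.9 and 45.1 to 74.8, and that of 4 markers of choroid and muscle 4.46 to 18.5 and 7.48 to 43.6. Diabetic replicate 5 was highest of the 9 in each, control replicate 5 lowest. The summed level of 5 blood markers was 8.59 and 9.80 in diabetic replicates 1 and 5 and at most 1.11 in the other 7 libraries. Their part in the collagen differences was not tested.

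Metallothioneins, which bind zinc and respond to glucocorticoids, were another group in which diabetic replicate 5 was highest. Mt1 had levels of 18.5, 11.2, 18.4, 36.2 and 16.3 in control and 21.8, 19.95, 41.9 and 75.6 in diabetic retinas, with a log2 difference of 0.97 (SE 0.309), and 0.47 without that library. Mt2 had a log2 difference of 0.80 (SE 0.321), and 0.38 without it, when neither had an unadjusted p under 0.05. No target of NRF2 among 15 had an unadjusted p under 0.05. Of 10 genes listed as structural small RNAs 5 were higher at an unadjusted p under 0.05, where 2.79% of all genes were, namely Rn7sk, Rmrp, Rpph1, Gm26917 and Gm42418, of which Rn7sk and Rpph1 lie outside the naming rule. Gm26917 and Gm42418 are annotated as long non-coding RNA genes and not as small RNAs. The median of the list was 0.65 with all libraries and 0.09 without diabetic replicate 5, where none was under 0.05. The log2 differences of Gm42418, Gm26917 and Rmrp were 0.70, 0.53 and 1.11, and 0.13, 0.21 and 0.07 without it. Rmrp, the RNA of the mitochondrial RNA processing ribonuclease, had a level of 5888 in that library and of 500.0 to 1809.5 in the other 8. Among 9 replication histones the median was -0.02, with 1 higher at an unadjusted p under 0.05 (11.1% against 4.46% of all genes), and -0.24 with none without that library. Among 35 cytosolic ribosomal proteins it was -0.03 with 1 higher (2.86%, near the 2.79% of all genes). Without that library it was -0.09 with 0 higher and 1 lower, where 315 and 186 of all 19120 genes were.

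**Figure D4:**
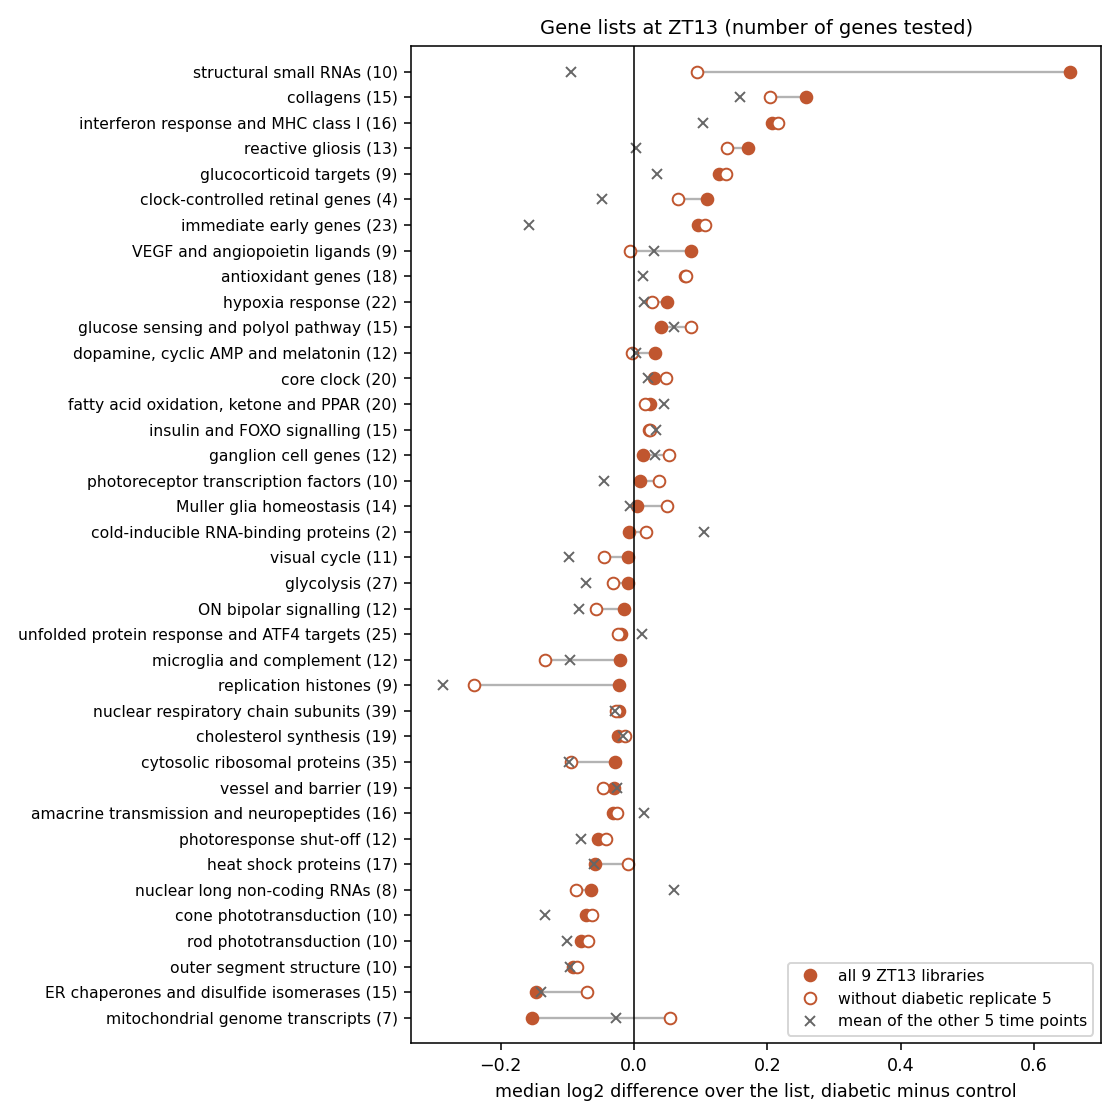
Median log2 difference of diabetic minus control at ZT13 (x axis) over each gene list, with the number of genes tested in parentheses, with all 9 libraries (filled points), without diabetic replicate 5 (open points) and as the mean of the other 5 time points (crosses); the lens crystallins, at 0.79 with 5 genes, are not drawn. The list named structural small RNAs, which also holds Gm26917 and Gm42418, moves from 0.65 to 0.09 without that library, while the interferon genes stay at 0.21 and 0.22.

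Genes of Muller glia homeostasis had a median of 0.0048 and no member of 14 under 0.05. Of 13 reactive gliosis genes 2 were higher at an unadjusted p under 0.05, the signal transducer Stat3 (0.17, SE 0.0637) and the protease inhibitor A2m (0.63, SE 0.237), or 15.4% against 4.46% of all genes. Their log2 differences were 0.13 and 0.46 without diabetic replicate 5, when no gliosis gene was under 0.05. No microglia or complement gene of 12 was under 0.05, and the summed level of 5 microglia markers was 14.4 to 20.8 in control and 16.3 to 19.3 in diabetic libraries. Among 19 genes of vessels and their barrier, Tie1, a receptor of endothelial cells, was the member under 0.05, a share of 5.26%. It had levels of 4.09, 3.64, 3.56, 4.68 and 3.81 in control and 3.05, 2.90, 2.97 and 3.24 in diabetic retinas, which did not overlap, with a log2 difference of -0.39 (SE 0.171). Vegfc had a log2 difference of 0.49 (SE 0.215) and was the only one of 9 VEGF and angiopoietin ligands under 0.05, or 11.1% against 4.46% of all genes. None was without diabetic replicate 5, and the list's median was then -0.0066 in place of 0.08. The neuropeptide Vip of amacrine cells was at -0.42 (SE 0.184), and its diabetic levels of 2.82 to 3.75 were below the control levels of 3.88 to 6.34. Vip was at -0.35 and not under 0.05 without diabetic replicate 5. Neither the ganglion cell genes nor the genes of ON bipolar signalling, 12 of each, had a member under 0.05.

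Immediate early genes are induced within minutes by light and neuronal activity. Egr1 had levels of 26.8, 31.0, 217, 41.4 and 340.3 in control and 51.5, 57.985, 39.4 and 24.8 in diabetic retinas. Control replicates 3 and 5 were high and the other 3 control libraries were within the diabetic range. The log2 difference was -1.60 (SE 0.64, 95% interval -2.88 to -0.31). Egr4 was at -1.25 and Ctgf, a matrix protein under control of YAP, at 0.43, and these 3 of 23 genes were under 0.05, or 13% against 4.46% of all genes. Of these none was under 0.05 without diabetic replicate 5, when Egr1 was at -1.41, Egr4 at -1.09 and Ctgf at 0.25. Over the other 5 time points Egr1 was at -0.99 (SE 0.269, edgeR adjusted p = 0.0216), while Ctgf was at -0.25 (edgeR adjusted p = 0.0491), in the direction opposite to ZT13.

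The other 5 time points, with 49 libraries that share none with ZT13, measured the same genotype difference. Over them 804 genes (4.21%) passed the adjusted threshold in edgeR, of which 407 (2.13%) were higher and 397 (2.08%) lower in diabetic retinas. At ZT13 the difference had the same direction for 338 of the 407 (83.0%), where 49.4% of all genes were higher, and for 293 of the 397 (73.8%), where 50.6% were lower. The median difference at ZT13 was 0.10 for the higher genes and -0.08 for the lower ones, against 0.20 and -0.19 over the other time points. At ZT13 itself 70 of the higher genes (17.2%) and 55 of the lower ones (13.9%) had an unadjusted p under 0.05 in the same direction, against 2.79% and 1.66% of all genes, and 1 and 5 in the opposite one. Without diabetic replicate 5 these counts were 44 of 409 (10.8%) and 35 of 402 (8.71%). In that setting 315 higher and 186 lower genes of all 19120 had an unadjusted p under 0.05, in place of 534 and 318. The same direction was then found for 323 of the 409 (79.0%) and 341 of the 402 (84.8%). The levels of the genotypes at ZT13 did not overlap in the same direction for 25 of the 407 and 16 of the 397 genes, against 0.654% and 0.397% of all genes.

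Rnf123 and Fndc1 had the smallest p-values over the other 5 time points, where their log2 differences were -0.33 (SE 0.0325) and -0.44 (SE 0.0443), each with an edgeR adjusted p of 8.87e-10. At ZT13 they differed from these values by 0.02 and -0.07, less than the SE. Fstl3, a follistatin-like inhibitor of activin, had levels of 4.17, 4.46, 3.98, 6.22 and 5.37 in control and 6.42, 6.82, 8.40 and 7.31 in diabetic retinas at ZT13, which did not overlap. Its log2 difference was 0.57 (SE 0.196), against 0.81 (SE 0.0823) over the other time points. Trpc6, a cation channel, had levels of 17.4, 15.4, 17.8, 14.2 and 13.3 in control and 24.8, 22.4, 18.4 and 20.9 in diabetic retinas, with log2 differences of 0.48 (SE 0.155) at ZT13 and 0.43 (SE 0.0658) over the other time points. Selenbp1, a selenium-binding oxidase, was likewise separate at ZT13, at 4.82 to 5.37 in control and 6.74 to 9.39 in diabetic retinas. Fam160a1, Wdr66 and Pdia5, past the threshold over the other time points at -0.20, -0.28 and -0.22, had log2 differences of -0.06, -0.10 and -0.09 at ZT13, with 95% intervals that include 0.

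**Figure D5:**
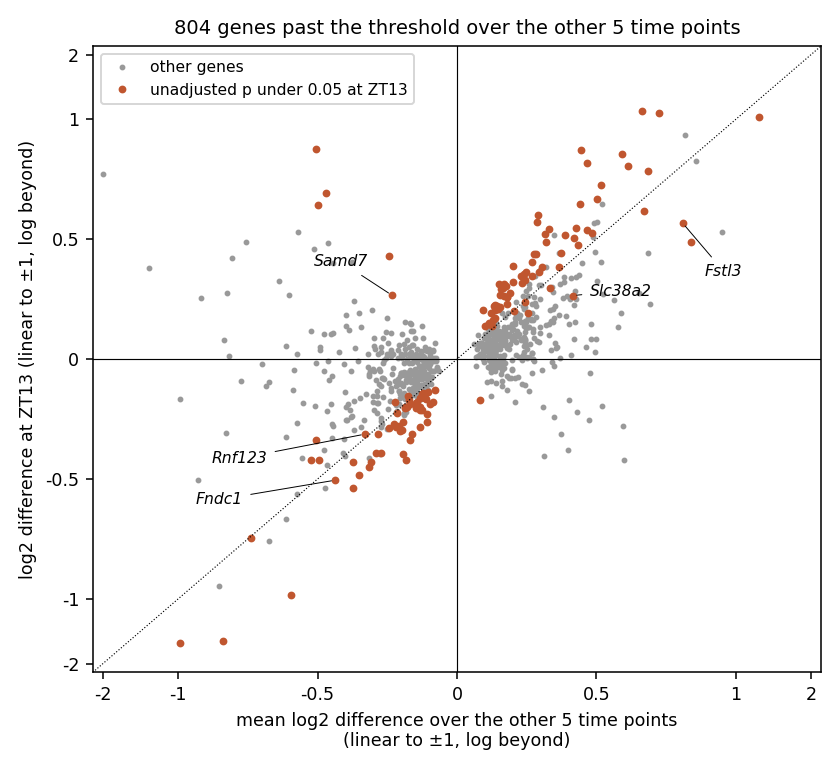
Log2 difference of diabetic minus control at ZT13 (y axis) against the mean of the other 5 time points (x axis) for the 804 genes past the adjusted threshold over the latter, on axes that are linear to 1 and logarithmic beyond, with genes of an unadjusted p under 0.05 at ZT13 in color and equality dotted. Most points lie in the quadrants of equal direction, 338 of 407 on the right and 293 of 397 on the left, and Samd7 lies in that of opposite direction.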

How the data were processed

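RNA-seq of 58 retinas was used, and the 9 libraries of ZT13 were compared within a model of all of them. The authors aligned reads with STAR (version 2.7.4a) to the GRCm38.p5 genome, using Gencode M15 gene models, and counted them per gene with HTSeq (version 0.11.1). The deposited counts are raw whole numbers per gene symbol, without normalization. Of 52459 symbols, 15226 had no read in any library. Groups, time points and replicate numbers were taken from the titles.

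Genes with a median above 4 DESeq2-normalized counts over all libraries were tested, which was 19120. Differences were tested with edgeR's (version 4.0.16) two-sided quasi-likelihood test in R 4.3.3, in 1 model of 12 groups with TMM factors, and p-values were adjusted by Benjamini-Hochberg over all genes tested. Contrasts were diabetic minus control at ZT13, its difference from the mean of the other 5 time points, from ZT9 and from ZT17, and the mean of the other 5. Levels are CPM over TMM-scaled library sizes. The method was tested on simulated data. Depth, given in the results, limits low genes most. Each of 16 replicate pairs differed by more than counting noise, and every library was counted as 1 replicate; whether each came from another mouse is not stated in the labels, so p-values measure the spread between libraries.

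The genes and lists were chosen with earlier results of these data known. Named genes were the 6 with the smallest p in each direction at ZT13 as none passed, leaving out predicted loci, the 3 with the smallest p in each list and in each contrast between time points, and the core clock genes. Locations are from Gencode M21 on GRCm38, which matched 145 of 148 named genes, not Ctgf, Ddit3 and Rmrp. Promoters are from RefSeq (GRCm38.p6). Single values of some listed genes are not reported here.

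Deviations from group means of libraries with the same number were correlated across genes, with r of 0.289, 0.124, 0.142 and 0.117 for numbers 1, 3, 4 and 5. As each was above 0.1, the numbers were treated as pairing the samples and a model with the replicate number as a block was run. Pairs with different numbers reached 0.285 (diabetic 3 with control 2) and 0.139 (diabetic 5 with control 4). Further alternatives were DESeq2 (version 1.42.0), its size factors, other filters on low counts, the 9 libraries alone, and leaving out each of them.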

Additional observations from a re-analysis of the deposited data

Results flagged for a closer look

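Within the genotypes at ZT13, 326 groups of values were searched for a library far from the others, and 25 had one. Chance flags about 1 in 20 groups, so a pattern of such libraries is a description. In diabetic replicate 5 lay 12 of the 25. Its normalized CPM was far above the other diabetic libraries for Gm42418 (12130), Hist1h4h (262), Cox6a1 (107.6), Rpl34 (61.2), Rpl27 (37.2), Igfbp2 (11.9) and Col1a1 (10.6). It was far below them for Nr2e3 (298), Hlf (250.2), Mbnl2 (174), Aqp4 (88.5) and Hspd1 (43.7).

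In the other libraries, diabetic replicate 4 stood apart for the lens crystallin Cryaa (30.2) and for the summed lens markers (58.2), and diabetic replicate 1 for Cdhr1 (1109). Control replicate 1 stood apart for Pdia6 (56.9) and Vip (6.34), and control replicate 2 for Bhlhe40 (43.0), Impg1 (335) and Otx2 (175). Control replicate 3 stood apart for Opn1sw (454), control replicate 4 for Igfbp5 (66.8), Slc38a2 (105.5) and Usp2 (203), and control replicate 5 for Prkca (491).

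The genotype difference of Samd7 differed between time points, by 0.50 on the log2 scale between ZT13 and the mean of the other 5 time points and by 0.70 between ZT13 and ZT17, each by edgeR's test of the difference itself.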

How the results depend on the processing

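At ZT13 DESeq2 called 1 gene lower, Fndc1 (log2 difference -0.51, adjusted p = 0.0345). The 9 libraries alone with the replicate block gave 1 gene higher, Cryaa (5.60, adjusted p = 0.0103), which rests on diabetic replicate 4. With 1 library left out, from 0 to 1 gene was higher and 0 were lower. Genes that differed from the mean of the other 5 time points numbered 0 with DESeq2 size factors, 0 without the filter on low counts and from 0 to 1 with 1 library left out, and from ZT17 from 0 to 1 with 1 library left out. Samd7 lost its call against the other time points without control replicate 1, 2 or 3 or any 1 diabetic replicate, and against ZT17 without control replicate 1 or 2 or diabetic replicate 3 or 4.

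At an unadjusted p under 0.05, genes higher and lower numbered 862 and 493 without the filter, 406 and 205 in the 9 libraries alone, and 712 and 794 there with the replicate block. With 1 library left out they ranged from 315 to 742 and from 186 to 455, and without diabetic replicate 5 only 360 of the 852 were shared. The replicate block over all 58 libraries gave 552 and 368, called 0 genes at ZT13, and called 400 higher and 444 lower genes over the other 5 time points in place of 407 and 397. Without the filter, genes higher and lower over the other 5 time points were 237 and 250, of which 205 and 185 had the same direction at ZT13. Those in the same direction at an unadjusted p under 0.05 were from 44 to 68 and from 35 to 66 with 1 library left out, and 91 lower ones in the 9 libraries with the block.

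Of the 148 named genes, the only ones searched, 6 changed sign without diabetic replicate 5: Cox6a1, Hist1h4d, Hist1h4h, Rpl27, Rpl34 and Slc16a3. With 1 library left out their log2 differences ranged from -0.0395 to 0.392, from -0.0692 to 0.525, from -0.24 to 0.879, from -0.0571 to 0.362, from -0.0150 to 0.379 and from -0.0153 to 0.349, the lowest being those without diabetic replicate 5. A change of sign of a difference under 1 SE was not counted. The cause of these changes was not tested. With 4 and 5 libraries, the median SE of 0.141 limits what can be seen, and genes near the threshold of 4 counts are the least certain.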
